A study of Homo sapiens with 2 samples.

Results

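The TNF superfamily is a set of membrane-bound or shed ligands and the receptors that bind them, and its transcripts were compared between HARA, an established line of human lung squamous carcinoma, and HARA-B4, a subline with high bone metastasis derived from it. The members were all probe sets whose only gene symbol in the platform annotation is a numbered TNFSF or TNFRSF symbol other than TNFRSF11B, or is TNF, LTA, LTB, LTBR, CD27, CD40, CD40LG, CD70, FASLG, EDA, EDAR or NGFR. This gave 82 probe sets of 40 genes, 16 ligands and 24 receptors, of 41043 named probe sets of 19735 genes in all. No probe set named for CD40LG alone was found, and that ligand is not analysed here.

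Both lines grew under the same conditions in serum-supplemented medium, with no treatment in the labels. Total RNA from each was hybridised to 1 Affymetrix array, so each group holds 1 array (n = 1). There is no replicate error and no p-value, and precision is limited by having only these 2 arrays. The sources used here do not say how HARA-B4 was derived or whether it is 1 clone.

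Ligands of this family act as trimers, on the surface of the producing cell or after release by a protease. Receptors with a death domain can recruit FADD and caspase-8 and start apoptosis, or recruit TRADD and signal to NF-kappaB. The other signalling receptors bind TRAF adaptors and signal to NF-kappaB and MAP kinases. Decoy receptors bind ligand without a working signalling tail. Many of the ligands and several of the receptors are best known from lymphocytes, while the pair of TNFSF11 (RANKL) and TNFRSF11A (RANK) drives the formation of osteoclasts in bone.

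A probe set signal was read against a background level of 27.1, the 95th percentile over both arrays of 165 probe sets for olfactory, taste and vomeronasal receptors, genes assumed silent in these lines. Of several probe sets, the one highest on average in log2 signal stands for the gene, and differences are HARA-B4 minus HARA on the log2 scale. Where only 1 array was above background, the other was set to the background level, and the fold is a lower bound. Median signals over all probe sets were 17.3 and 16.2. Of the fixed squamous markers, the 5 that were measured (KRT5, KRT14, SOX2, DSG3 and PERP) were all above background on both arrays, with summed signals of 16643 (HARA) and 20778 (HARA-B4).

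Above background on at least 1 array were 16 of the 40 genes (40.0%), against 58.2% of all genes. The ligands and receptors parted here, with 3 of 16 ligands (18.8%) and 13 of 24 receptors (54.2%) above background. HARA-B4 was at least 2-fold higher in 2 of the 16 genes, CD70 and TNFSF9, and lower in 0. Among all 11489 genes above background 3.62% were higher and 4.20% lower by that rule, 7.82% in either direction. The median difference was 0.02 over the 16 genes and 0.01 over all genes above background, so the centre of the family lay close to that of other genes, with CD70 and TNFSF9 far from it.

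**Figure D1:**
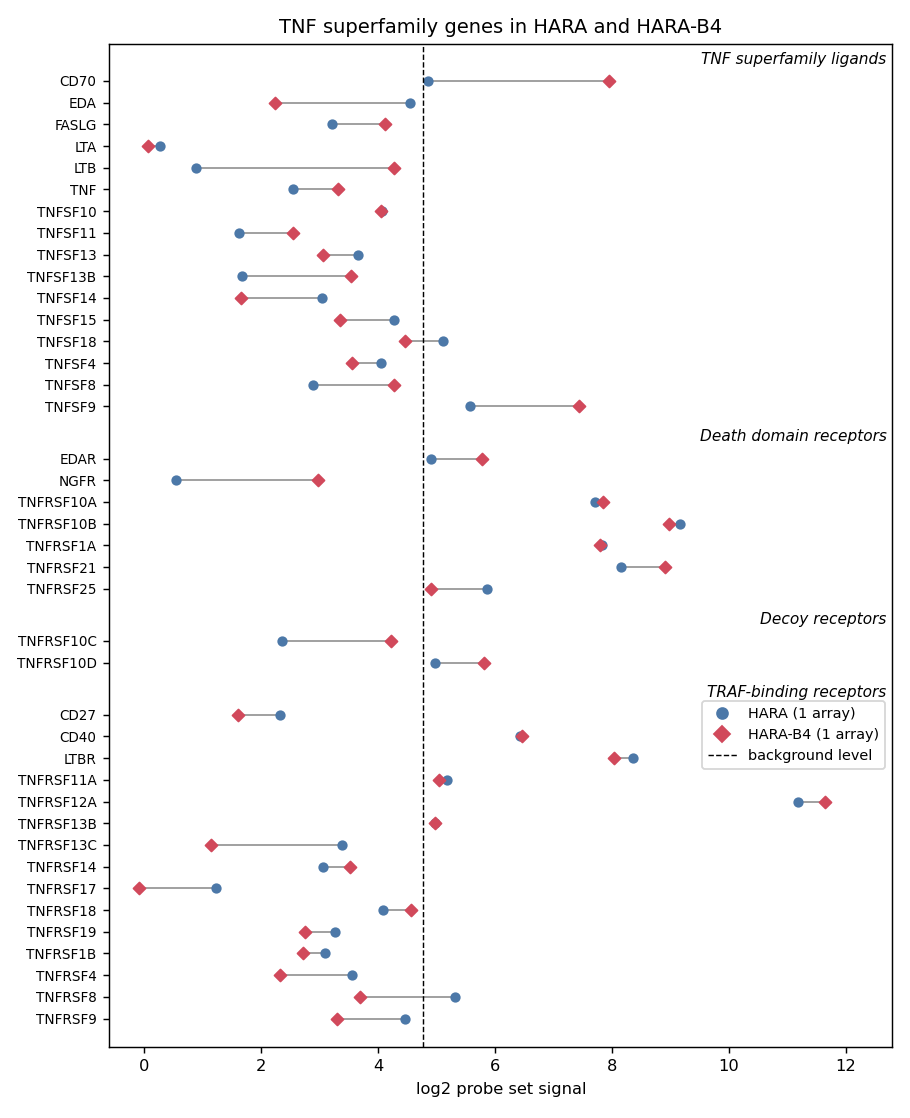
Log2 probe set signal of each of the 40 genes in HARA (circles) and HARA-B4 (diamonds), 1 array each, grouped by role, with the background level as a dashed line. Signals of different genes come from different probes and are not to be set against each other; within a row, CD70 and TNFSF9 lie farther to the right in HARA-B4, while 24 genes lie left of the line on both arrays.

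CD70, the ligand of CD27 and a co-stimulator of T cells, gave a HARA signal of 29.1 and a HARA-B4 signal of 248. The difference was 3.10, 8.54-fold, and ranked 6 from the highest of the 10202 genes that passed background on both arrays. The HARA value lay only just above the background level of 27.1, so the gene was close to undetected in the parental line and clearly detected in the subline, and the size of the fold is uncertain. TNFSF9, the 4-1BB ligand, which co-stimulates T cells through TNFRSF9, gave 47.5 in HARA and 173 in HARA-B4. Its difference was 1.86, 3.63-fold, with rank 67 from the highest. With the background set at the 99th percentile the difference was 0.86, under 2-fold. Each of the 2 genes has 1 probe set, so no second probe set of the same gene could be set beside these values. In bulk RNA, more expressing cells and more RNA per cell cannot be told apart.

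The receptors of these 2 ligands were at background on both arrays. CD27 had signals of 4.98 and 3.04, and TNFRSF9 of 21.96 and 9.81. T cell transcripts were low as well: of 7 T and NK cell markers measured, 6 were at background on both arrays, with CD3D at 9.33 and 4.92, CD3E at 6.11 and 16.4, and CD3G at 4.72 and 4.61. The exception was CD8A, at 44.8 and 67.1. The list had a summed signal of 84.4 on the HARA array and 103 on the HARA-B4 array. The leukocyte gene PTPRC stood at 8.47 and 5.99.

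Of 5 B and plasma cell markers, CD79A alone was above background, at 63.4 and 55.2, and the list summed to 93.3 and 74.6. Of 6 myeloid markers, CSF1R alone was above it, in HARA only (27.4 and 19.4), and the list summed to 61.4 and 32.3. Fibroblast markers summed to 225 and 186, with COL1A1 the 1 of 6 above background, and endothelial markers to 73.1 and 69.7, with PECAM1 the 1 of 5. Most signals in these sums lay under the background level, so the sums are given as values and not compared. Of the 5 markers of these other cell types above background on at least 1 array, CD8A alone had the higher signal in HARA-B4 (0.58, not at 2-fold), and its part in the CD70 and TNFSF9 values was not tested.

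CD70 and TNFSF9 are next to each other in the RefSeq order of protein-coding genes on chromosome 19 (GRCh38.p14), with TNFSF14, the ligand LIGHT, on the far side of CD70. TNFSF14 was at background on both arrays, at 8.22 and 3.14. The 15 protein-coding genes on each side of CD70 were read for comparison, a window chosen after the values of CD70 and TNFSF9 were seen. Of the genes in it other than CD70 and TNFSF9, 14 were above background, of which 1 was at least 2-fold higher, ARHGEF18 at the edge of the window (1.01), and 0 were lower. Their median difference was -0.24, and the range ran from -0.998 to 1.01, with lower bounds for ZNF557 and INSR, which were above background in HARA-B4 only. INSR had signals of 21.8 and 50.6, a measured difference of 1.22 and a bound of 0.90. Most of these 14 genes did not share the higher values of CD70 and TNFSF9. Nearest to the pair, DENND1C, TUBB4A, TNFSF14 and C3 were at background on both arrays and GPR108 was not measured. The closest genes above background were CRB3 (0.30) and TRIP10 (-0.62), each 4 places from CD70. The cause of the higher values was not tested.

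**Figure D2:**
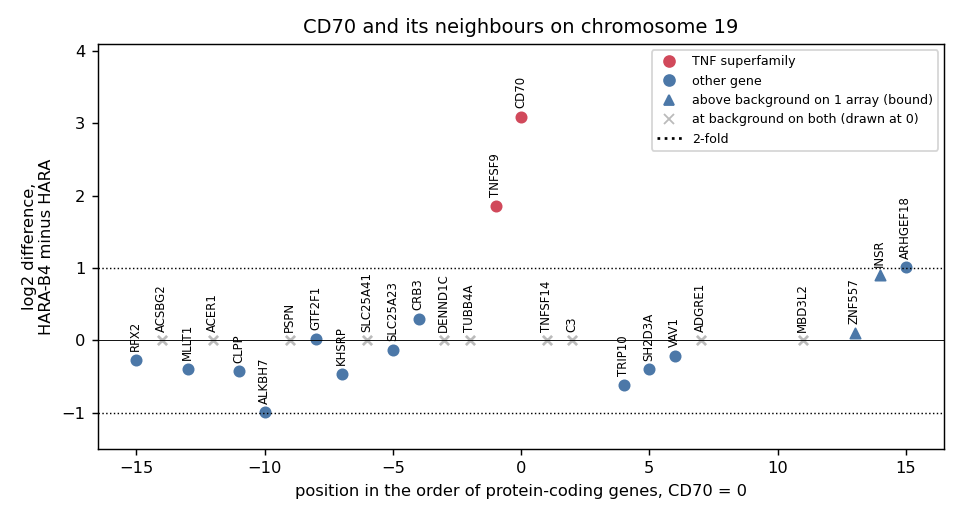
Log2 difference, HARA-B4 minus HARA, of the measured protein-coding genes up to 15 places on either side of CD70, in RefSeq order. TNFSF9 (1.86) and CD70 (3.10) stand side by side above the dotted 2-fold line, and the 14 other genes above background lie between -0.998 and 1.01, with ZNF557 and INSR drawn at their lower bounds.

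RefSeq promoter sequences (GRCh38.p14, 250 bases before to 50 bases after the start) were found for 26 of the 40 genes by symbol. CD70 was not among them. A script searched both strands for the NF-kappaB site consensus, and for a pair of GAAA boxes set apart by any 2 bases, the core of the interferon-stimulated response element (ISRE). In the sequences printed here, matches to the 2 motifs do not overlap each other. The promoters below are those of TNFSF9, of its neighbour TNFSF14 and of TNFSF10, the first pair shown because these chromosome 19 genes had unlike signals, and TNFSF10 because it encodes TRAIL, whose receptors TNFRSF10A and TNFRSF10B were above background in both lines. Capitals mark motif matches.
TNFSF9, chr19:6530776-6531075, plus strand: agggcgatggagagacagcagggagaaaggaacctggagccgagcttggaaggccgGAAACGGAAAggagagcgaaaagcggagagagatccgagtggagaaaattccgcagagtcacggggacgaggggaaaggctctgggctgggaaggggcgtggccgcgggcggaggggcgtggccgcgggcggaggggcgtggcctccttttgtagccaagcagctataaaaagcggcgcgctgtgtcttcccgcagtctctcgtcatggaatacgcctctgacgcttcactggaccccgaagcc
TNFSF14, chr19:6670111-6670410, minus strand: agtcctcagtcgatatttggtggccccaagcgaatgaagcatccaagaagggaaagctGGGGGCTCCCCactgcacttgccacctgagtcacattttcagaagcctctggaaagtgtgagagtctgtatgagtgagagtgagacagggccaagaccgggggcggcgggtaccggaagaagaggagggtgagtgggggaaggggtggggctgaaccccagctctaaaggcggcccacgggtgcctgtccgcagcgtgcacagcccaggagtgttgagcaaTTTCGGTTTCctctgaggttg
TNFSF10, chr3:172523381-172523680, minus strand: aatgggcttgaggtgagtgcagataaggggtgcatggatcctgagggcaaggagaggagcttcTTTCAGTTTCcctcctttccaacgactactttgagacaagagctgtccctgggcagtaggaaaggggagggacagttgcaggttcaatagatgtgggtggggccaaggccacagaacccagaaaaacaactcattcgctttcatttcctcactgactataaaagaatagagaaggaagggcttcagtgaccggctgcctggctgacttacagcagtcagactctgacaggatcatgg

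In the TNFSF9 promoter the match was to the ISRE core, 194 bases before the start. In TNFSF14 the first capitals hold 2 overlapping NF-kappaB matches, from 192 and 191 bases before the start, and the second a reverse-strand ISRE match after the start. In TNFSF10 the ISRE match was on the reverse strand, 187 bases before the start. Of the 26 genes, 6 had an ISRE match (23.1%; FASLG, TNFRSF1B, TNFSF10, TNFSF13B, TNFSF14 and TNFSF9), against 4.38% of 27305 genes with a promoter. An NF-kappaB match was found in 9 (34.6%; LTA, LTB, TNFRSF14, TNFRSF19, TNFRSF25, TNFRSF9, TNFSF11, TNFSF13 and TNFSF14), against 13.3%. Of the genes with either match, TNFSF9 and TNFRSF25 were above background, and the others were at background on both arrays. A match describes letters in the window and is not a measured binding site.

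The other ligand above background was TNFSF18, the ligand of TNFRSF18 (GITR), in HARA only. Its signals were 34.7 in HARA and 21.9 in HARA-B4, at least 1.28-fold lower in HARA-B4, which is under the 2-fold rule. The remaining 13 ligands were at background on both arrays: EDA, FASLG, LTA, LTB, TNF, TNFSF4, TNFSF8, TNFSF10, TNFSF11, TNFSF13, TNFSF13B, TNFSF14 and TNFSF15. TNF itself had signals of 5.83 and 9.92. TNFSF10, which triggers apoptosis through TNFRSF10A and TNFRSF10B, had 16.8 and 16.5. TNFSF11, the osteoclast factor RANKL, had 3.09 and 5.85. Differences between signals under the background level have no order and are not read.

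The death domain receptors were detected most completely, with 6 of 7 above background on both arrays. Of these 0 were at least 2-fold higher or lower, and the median difference was 0.06. TNFRSF1A, the main receptor for TNF, had signals of 228 in HARA and 223 in HARA-B4 (-0.03). TNFRSF10A, a TRAIL receptor, had 209 and 232 (0.15), and its 2 other probe sets differed by -0.13 and 0.10. TNFRSF10B, the other TRAIL death receptor, had 572 and 504 (-0.18), and its further probe sets above background differed by -0.67 and 0.05. TNFRSF1A, TNFRSF10A and TNFRSF10B were thus above background in both lines. Their differences were within 1.5-fold, except on the TNFRSF10B probe set that differed by -0.67.

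TNFRSF21, death receptor 6, had signals of 286 in HARA and 483 in HARA-B4, a difference of 0.75, and its second probe set differed by 0.41. EDAR, the ectodysplasin receptor of skin appendages, had 29.9 and 55.2 (0.89), with the HARA value close to background. TNFRSF25, death receptor 3, had 58.3 and 29.8, a difference of -0.97, just under 2-fold lower. Its probe sets disagreed: others differed by -0.68 and 0.31, and all of them lay near background. NGFR, the p75 neurotrophin receptor, was at background on both arrays (1.46 and 7.85).

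These values can be set beside the spread between probe sets of the same gene. In 4830 genes at least 2 probe sets passed background on both arrays, and their log2 differences had an SD of 0.30 within a gene. That SD measures probe sets of 1 gene on the same 2 arrays and says nothing of repeat cultures, RNA preparations or arrays. At a limit of 1.5-fold, 5 of the 16 genes were higher (CD70, TNFSF9, EDAR, TNFRSF10D and TNFRSF21) and 1 was lower (TNFRSF25). Of all genes above background, 10.2% were higher and 11.0% lower at that limit, 21.3% in either direction. Differences as large as that of EDAR in either direction were found in 8.92% of genes above background on both arrays, and as large as that of TNFRSF21 in 12.6%.

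Of the decoy receptors, TNFRSF10D, which binds TRAIL with a truncated death domain, had signals of 31.4 in HARA and 56.0 in HARA-B4 (0.83). The HARA value was close to background, and its second probe set was at background on both arrays (8.01 and 15.4). TNFRSF10C, the other TRAIL decoy, was at background on both arrays, at 5.09 and 18.7. Differences as large as that of TNFRSF10D were found in 10.3% of genes above background on both arrays.

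**Figure D3:**
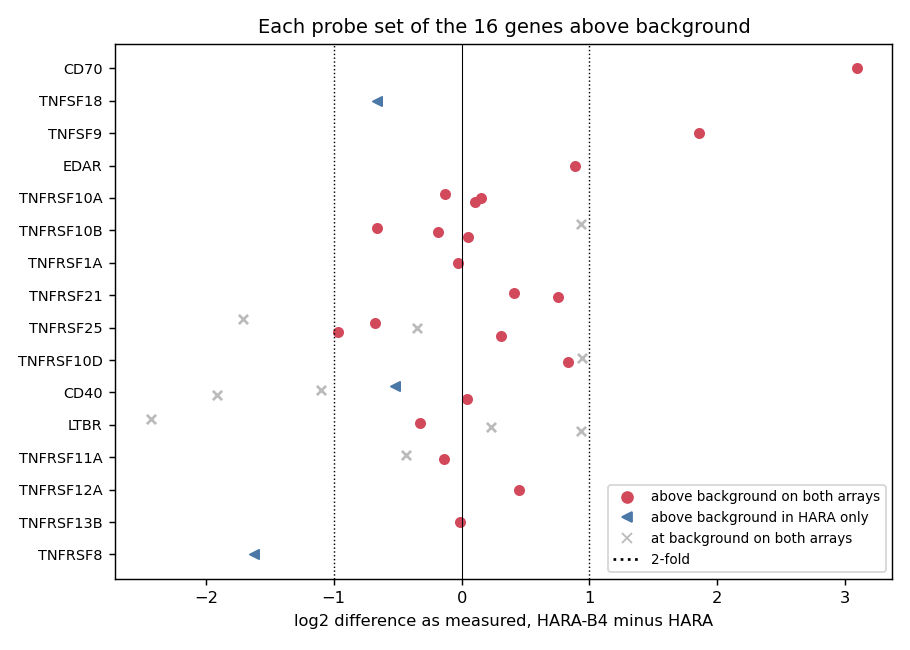
Measured log2 difference, HARA-B4 minus HARA, of each probe set of the 16 genes above background, with 2-fold as dotted lines and a symbol for the arrays on which the probe set was above background. CD70 (3.10) and TNFSF9 (1.86) lie beyond 2-fold on 1 probe set each; TNFRSF8 (-1.62 as measured) was above background in HARA only, and the crosses are probe sets at background on both arrays.

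TRAF-binding receptors were above background in 6 of 15 genes, with a median difference of -0.08, and 0 were at least 2-fold higher or lower. TNFRSF12A, the TWEAK receptor Fn14, had signals of 2336 in HARA and 3188 in HARA-B4, a difference of 0.45 on its 1 probe set. LTBR, the lymphotoxin beta receptor, had 328 and 262 (-0.32), and its other probe sets were at background on both arrays. CD40, the receptor through which T cells act on antigen-presenting cells, had 85.6 and 88.0 (0.04). A second CD40 probe set was above background in HARA only, at 29.5 and 20.6, and its others were at background on both arrays. On the probe set that stands for the gene, all 3 were well above background in both lines, with differences within 1.5-fold.

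TNFRSF11A, the osteoclast receptor RANK, had signals of 36.4 in HARA and 33.1 in HARA-B4 (-0.14). Its second probe set was at background, at 15.1 and 11.1. TNFRSF13B, the B cell receptor TACI, had 31.5 and 31.3 (-0.01). Both genes lay close to the background level on both arrays, where their presence rests on the level chosen. TNFRSF8, the lymphocyte activation receptor CD30, had 39.7 in HARA and 12.9 in HARA-B4, at least 1.46-fold lower in the subline.

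At background on both arrays were 11 receptors: CD27, NGFR, TNFRSF1B, TNFRSF4, TNFRSF9, TNFRSF10C, TNFRSF13C, TNFRSF14, TNFRSF17, TNFRSF18 and TNFRSF19. TNFRSF1B is the second receptor of TNF, TNFRSF4 is the T cell receptor OX40, and TNFRSF13C and TNFRSF17 are the B cell receptors for BAFF and APRIL. Over the 24 ligands and receptors at background on both arrays, all 48 probe sets were at or under the level, with signals from 0.933 to 23.3 in HARA and from 0.409 to 23.5 in HARA-B4. A signal under the level is not evidence that the transcript is absent.

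Ligands were then paired with their known receptors in 24 pairs, of which 23 had both partners measured. The pairs were chosen after the values were seen. No ligand except CD70, TNFSF9 and TNFSF18 was above background, so the pairs of other ligands could not have both partners above it. On neither array did any pair have both its partners above background. In HARA 13 pairs had the receptor only, 3 the ligand only (CD70 with CD27, TNFSF9 with TNFRSF9, and TNFSF18 with TNFRSF18) and 7 neither. In HARA-B4 12 had the receptor only, 2 the ligand only and 9 neither. The pairs share members, so they are not independent counts. TNFRSF1A, LTBR, TNFRSF10A, TNFRSF10B, TNFRSF11A, EDAR and TNFRSF25 were among the receptors above background on both arrays with no measured ligand of theirs above it.

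Family genes outside the rule were read beside the members. FAS, the death receptor for FASLG, had signals of 431 in HARA and 273 in HARA-B4, a difference of -0.66. Its 3 other probe sets above background on both arrays differed by -0.89, -0.79 and -0.65, and 1 more, above background in HARA-B4 only, by 0.36. FAS was thus under 2-fold lower on 4 probe sets, with 1 dim probe set in the other direction. TNFRSF11B, the secreted RANKL decoy osteoprotegerin, was above background in HARA-B4 only, at 3.96 and 34.2, at least 1.26-fold higher. Its second probe set was at background on both arrays, at 5.21 in HARA and 12.5 in HARA-B4. RELT had 34.4 and 27.9 (-0.31), and EDA2R was at background on both arrays, at 13.1 and 11.9.

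Adaptors and proximal kinases, which carry the signal away from the receptor, were above background in 14 of 15 measured genes. Of these 0 were at least 2-fold higher or lower, and the median was -0.06. FADD, the adaptor of death receptors, had signals of 654 and 776 (0.25), and TANK, a TRAF-binding regulator, had 658 and 530 (-0.31). Chosen after their values were seen, EDARADD, the adaptor of EDAR, had 36.2 and 64.7 (0.84), and MAP3K14, the kinase NIK of the alternative NF-kappaB pathway, had 45.8 in HARA and 17.0 in HARA-B4, at least 1.69-fold lower. EDAR and EDARADD had differences of similar size and sign, and their ligand EDA was at background.

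The death-inducing complex and its regulators showed 6 of 7 measured genes above background, 0 at 2-fold in either direction and a median of 0.16. DIABLO, which opposes inhibitors of apoptosis, had 1184 and 1094 (-0.11), and XIAP, one of those inhibitors, had 926 and 971 (0.07). CASP8, the initiator caspase that FADD recruits, had 308 and 304 (-0.02), and was chosen after its values were seen. Another CASP8 probe set above background on both arrays had 88.8 in HARA and 50.9 in HARA-B4 (-0.80).

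Ubiquitin editing of the receptor complexes was measured in 10 genes, all above background on at least 1 array, with a median of 0.18. At 2-fold 0 were higher and 1 lower, beside 3.62% and 4.20% of all genes above background. The lower gene was RBCK1 (HOIL-1), a subunit of the linear ubiquitin ligase, at 1035 in HARA and 448 in HARA-B4 (-1.21). Its other probe sets differed by -0.58 and 0.09, so both the size and the sign of the difference depend on the probe set. SHARPIN, another subunit, had 110 and 143 (0.37), and was chosen after its values were seen.

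The list of proteases that shed or process the ligands, with their regulators, was above background in 7 of 8 genes, with a median of 0.40. At 2-fold 1 was higher and 0 lower, beside 3.62% and 4.20% of all genes above background. The higher one was no protease but TIMP3, an inhibitor of ADAM17 and so of TNF shedding, at 33.7 in HARA and 74.6 in HARA-B4 (1.15). All 4 TIMP3 probe sets were higher in HARA-B4: another differed by 0.84, and those above background in HARA-B4 only were at least 2.76-fold and 4.02-fold higher. The chosen probe set was close to background in HARA, and TIMP3 was no longer called with the background at the 99th percentile or raised by 1, with log2(signal + 16), at 3-fold or where all probe sets had to pass, and had no value without _x_at and _s_at probe sets. ADAM10 had 1631 and 1049 (-0.64) and ADAM17, which sheds TNF, had 220 and 292 (0.40). Those 2 sheddases were chosen after their values were seen.

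Genes that TNF induces through NF-kappaB were above background in 12 of 22 measured, with a median of -0.29. At 2-fold 0 were higher and 3 lower, beside 3.62% and 4.20% of all genes above background. The lower ones were CXCL8 (654 and 63.4, -3.37), NFKBIA, the inhibitor IkappaB-alpha (848 and 162, -2.39), and CXCL1, at 174 in HARA and 17.9 in HARA-B4, at least 6.43-fold lower. These 3 differences were known from earlier results of the same arrays when the list was made. The others lay within 2-fold, among them TNFAIP3, the feedback inhibitor A20 (95.6 and 73.4, -0.38), and IER3 (1283 and 2267, 0.82), both chosen after their values were seen. A second TNFAIP3 probe set went the other way, at 35.7 in HARA and 42.4 in HARA-B4 (0.25). TNF was at background on both arrays, which is not evidence that it is absent, and TNFRSF1A differed by -0.03. Whether TNF has a part in the lower values of CXCL8, NFKBIA and CXCL1 was not tested.

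**Figure D4:**
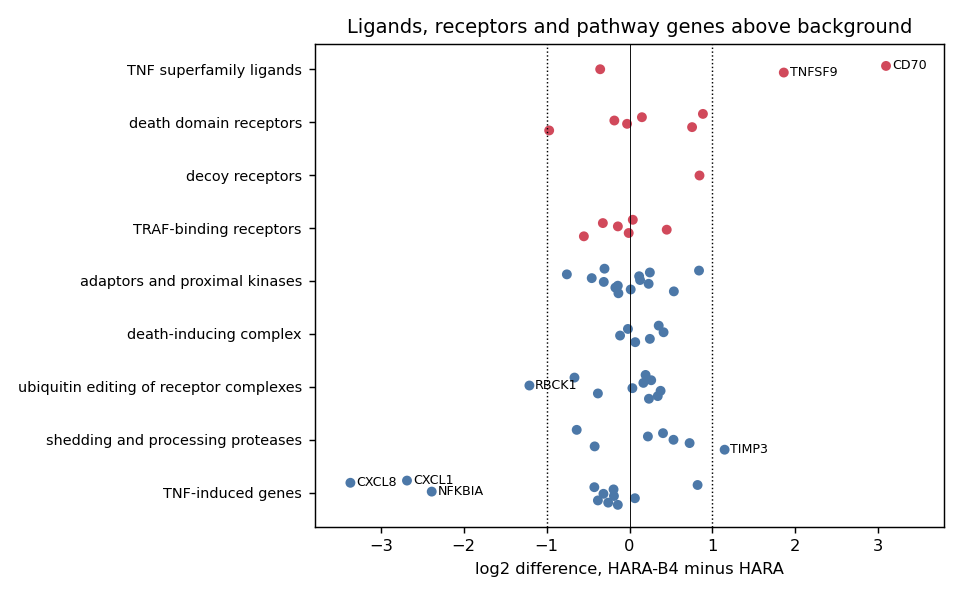
Log2 difference, HARA-B4 minus HARA, of each gene above background on at least 1 array. The 4 groups of the TNF superfamily are at the top and the 5 lists of pathway genes at the bottom. Each gene has 1 point per list, and FADD, TNFAIP3 and TRAF1 stand in more than 1 list. Dotted lines mark 2-fold, and bounds are drawn where 1 array was at background. CD70, TNFSF9 and TIMP3 lie beyond 2-fold on the higher side, and CXCL8, CXCL1, NFKBIA and RBCK1 on the lower side.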

How the data were processed

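The authors deposited 1 linear intensity (signal) for each of 54675 probe sets on 1 array per line. The submitters' processing notes name Affymetrix Expression Console. The sources used here do not give its version, summary method or scaling. Deposited signals were taken to log2 with no further scaling.

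Genes were named from the platform annotation: 41097 probe sets had 1 symbol, 1801 several and 11777 none, and 41043 were matched by Entrez ID to RefSeq (GRCh38.p14). The background level was 4.76 on the log2 scale. A gene counted as different at 2-fold, with bounds where 1 array was at background. With 1 array per group there is no test.

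Every member above background is named with its values, and in each other list up to 4 genes at 2-fold, or the 2 with the highest signals where none reached it. The members and lists were chosen with earlier results of these data known, and the ligand and receptor pairs after the values were seen. FADD, TNFAIP3 and TRAF1 are counted in more than 1 list. The calling was tested on simulated data, with changes planted only in genes well above background in HARA. That test does not cover genes close to the level in HARA, such as CD70. Python 3.11.15, pandas 2.3.3, numpy 2.4.6 and statsmodels 0.14.6 were used.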

Additional observations from a re-analysis of the deposited data

How the results depend on the processing

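CD70 and TNFSF9 were called at 2-fold under all 13 alternatives that give calls except the background at the 99th percentile, which left CD70 alone (1 gene higher among members and among ligands). Over the 10 alternatives that give a value, the difference of CD70 ran from 1.39 to 3.16 and that of TNFSF9 from 0.86 to 1.92, both lowest at that same background. The ligand median was then 1.13, over CD70 and TNFSF9 alone, as TNFSF18 was at background. Calls over all genes were then 206 higher and 244 lower, and TIMP3 was no longer called (0). At the 90th percentile TNFRSF8 was lower (1 member, 1 receptor), the ligand median was 0.80 and 1 adaptor, MAP3K14, was lower. With no filter and no bound, 7 members were higher and 7 lower (ligands 5 and 2, receptors 2 and 5), the ligand median was 0.37, and all genes gave 2268 and 2541; adaptors gave 1 lower, the death-inducing complex 1 lower, ubiquitin editing 1 higher, and TNF-induced genes 1 higher and 5 lower. At 1.5-fold, 5 members were higher and 1 lower (receptors 3 and 1), all genes gave 1175 and 1269, adaptors 1 and 1, ubiquitin editing 2 lower, proteases 2 higher and 1 lower, and TNF-induced genes 1 higher. At 3-fold all genes gave 141 and 155, and ubiquitin editing and proteases 0 calls; the same 0 held for those lists where all probe sets had to pass. Proteases also gave 0 with the background raised by 1, with log2(signal + 16) and without _x_at and _s_at probe sets, and 2 with the mean of all probe sets, which left ubiquitin editing at 0 lower. Without _x_at and _s_at probe sets ubiquitin editing had 1 higher and TNF-induced genes 1 lower. Means in place of medians were 0.34 for members, 1.53 for ligands and -0.79 for TNF-induced genes. For the 7 genes called in the text (CD70, TNFSF9, TIMP3, RBCK1, NFKBIA, CXCL8 and CXCL1), the sign of the difference held under each alternative that gave a value; CXCL1 was at -0.88 with the 99th percentile background and RBCK1 at -0.57 with the mean of all probe sets. The cause of these moves was not tested beyond what each rule leaves out. No paired analysis was possible because each group holds 1 array.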

Other observations

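Some family genes were measured only by probe sets that the annotation assigns to several genes, and these stand outside the comparison. The decoy receptor TNFRSF6B shares its probe set with the readthrough gene RTEL1-TNFRSF6B, which gave 44.1 on the HARA array and 48.7 on the HARA-B4 array, a log2 difference of 0.15. TNFSF12, the ligand TWEAK of TNFRSF12A, shares a probe set with TNFSF12-TNFSF13, at 2.55 and 8.91, under the background level of 27.1 on both arrays.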
